A study of Homo sapiens with 28 samples.

Results

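The genes described here are 9 members of the ETS family of transcription factors, namely ETV1, ETV4, ETV5, ERG, SPDEF, EHF, ELF3, ELK4 and ETS2, found by gene symbol among 61815 human genes, with 1 row each. Their RNA was measured in LNCaP, an androgen-responsive line from a human prostate cancer metastasis that carries a mutated androgen receptor, after every culture, controls included, had been kept for 72 h in medium with charcoal-stripped serum, which lacks most steroid hormones. The 28 libraries form 8 groups, in 2 separate experiments. One of them gave 24 h of vehicle (0.1% DMSO), Senexin B at 1 µM, R1881 at 0.1 nM, or R1881 together with Senexin B (n = 3 each). The other gave 72 h of vehicle, SNX631 at 500 nM, R1881 at 1 nM, or R1881 together with SNX631 (n = 4 each). R1881 is a synthetic androgen that resists breakdown, and Senexin B and SNX631 inhibit CDK8 and CDK19, the Mediator kinases, which associate with the Mediator complex of RNA polymerase II. Doses are those of the labels, and the study's text gives a different one for Senexin B. Time, R1881 dose, inhibitor and the experiment itself differ together and cannot be told apart, so values of both experiments stand side by side, and all groups are 1 cell line.

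ETS factors share a winged helix-turn-helix domain that binds DNA around the core GGAA, and they differ in the flanking bases they prefer, in their partners and in the tissues that express them. In prostate cancer, ERG, ETV1, ETV4 and ETV5 are known as fusion oncogenes: a rearrangement places one of them behind the promoter of an androgen-driven gene such as TMPRSS2, so that androgen drives a factor that normal luminal cells hardly express. LNCaP lacks the TMPRSS2-ERG fusion and is known to carry a rearrangement that moved ETV1 into the MIPOL1 locus. SPDEF, EHF and ELF3 are the epithelial members, which control differentiation of glandular and luminal cells. ELK4 is a ternary complex factor that sits on DNA together with serum response factor, and ETS2 is phosphorylated in response to RAS and ERK signalling.

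Total counts ranged from 9846595 to 33809419 per library, the highest being vehicle replicate 3 at 24 h and the rest reaching 15248512. KLK3, which encodes prostate-specific antigen, checked the R1881 label: it stood at 0.69 to 1.76 CPM (counts scaled to library size after TMM normalisation) in every library without R1881 and at 28.8 CPM or more in every library with it. Of 9 luminal markers, 9 were detected in every library, whereas no basal marker passed 0.447 CPM. Of 5 blood markers, CD3E and HBB were at 0 in all 28 libraries, PTPRC did not pass 3 and PECAM1 2 counts, and CD68 was detected in every library at 0.337 to 1.4 CPM. Of 5 stromal markers, COL1A2 and DCN did not pass 2 counts and LUM did not pass 0.976 CPM, while COL1A1 and COL3A1 were expressed and moved with treatment. The summed stromal level ran from 26.6 to 30.3 CPM in vehicle and from 15.2 to 16.7 CPM with R1881 at 24 h, and from 32.6 to 35.8 and from 18.1 to 25 CPM at 72 h. With inhibitor alone it lay between 21.5 and 23.1 CPM at 24 h and between 30.4 and 32.9 CPM at 72 h. With R1881 and inhibitor together it lay between 9.57 and 11.3 CPM at 24 h and between 13.2 and 16 CPM at 72 h, and its part in the results below was not tested. The sum rested on COL1A1 and COL3A1, which moved in opposite directions with inhibitor alone. COL1A1 went from 23.6 to 11.4 CPM with Senexin B and from 29.5 to 19.3 CPM with SNX631. COL3A1 went from 4.51 to 10.6 CPM and from 4.16 to 11.8 CPM. All libraries came from 1 cell line, so the sum is not a share of stromal cells. In bulk libraries, fewer cells that hold an RNA and less of it per cell cannot be told apart.

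The 9 genes differed widely in abundance. When the levels were divided by the length of the annotated exons, SPDEF and EHF were the most abundant members, ELK4, ELF3 and ETS2 came next, and ETV1 was lowest among those that could be tested. In vehicle at 24 h, the length-scaled level was 34.1 ± 0.42 CPM per kb for SPDEF and 26 ± 1 for EHF (SD, n = 3). It was 6 ± 0.17 CPM per kb for ELK4, 5.19 ± 0.041 for ELF3 and 2.52 ± 0.12 for ETS2, and 0.699 ± 0.04 for ETV1. In R1881 at 72 h, SPDEF reached 120.0 ± 2.1 and EHF 102.0 ± 3.4 CPM per kb, ELK4 15.7 ± 0.51, and ELF3 had dropped to 2.81 ± 0.19 (SD, n = 4), so that ELF3 no longer stood beside ELK4. ETV4, ERG and ETV5 stayed below 0.1 CPM per kb in the mean of every group.

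**Figure D1:**
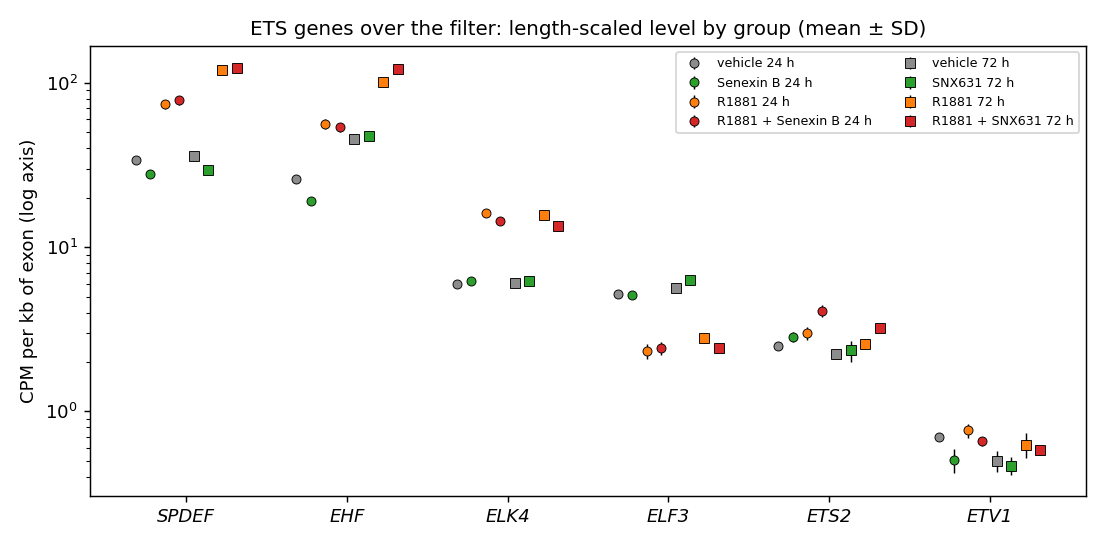
Length-scaled level (CPM per kb of annotated exon, log axis) of the 6 members that passed the filter, with a point per group at the mean and bars for the SD (n = 3 at 24 h, circles; n = 4 at 72 h, squares). SPDEF and EHF lie at the top and ETV1 at the bottom in all 8 groups, and ELK4 and ELF3 part in the groups with R1881.

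Among the fusion oncogenes, only ETV1 had enough counts for a test. ERG (chromosome 21, 38380027 to 38661780, minus strand, GRCh38) was at 0 in 18 of 28 libraries and never passed 3 counts. ETV4 (chromosome 17, 43527844 to 43579620, minus strand) was at 0 in 24 of 28 libraries, with a maximum of 2 counts. At this depth neither could be told from absent in any group, and no fold change is given for them.

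ETV5 (chromosome 3, 186046308 to 186110318, minus strand) had few counts but not the same few everywhere. At 24 h its expected counts were 5, 12.5 and 11.5 in vehicle, 0.5, 4 and 7.5 with Senexin B, 3, 0 and 4 with R1881, and 1, 0 and 0 with both. At 72 h they were 6, 4.5, 3 and 3 in vehicle, 1, 3, 0 and 2.5 with SNX631, 0, 1, 0 and 0 with R1881, and 0 in all 4 libraries with both. Scaled to depth, vehicle at 72 h held 0.334 ± 0.13 CPM and did not overlap SNX631 at 0.131 ± 0.11 CPM or R1881 at 0.0205 ± 0.041 CPM (SD, n = 4). The nearest vehicle and SNX631 libraries were at 0.23 and 0.228 CPM. The differences of vehicle from SNX631 and from R1881 each had a two-sided exact permutation p of 0.0286, the smallest that 4 against 4 libraries can give. The adjusted p was 0.343 over the 24 exact tests of ETV4, ETV5 and ERG. At 24 h the smallest possible p is 0.1, so no adjusted p in this set could fall under 0.05. The adjusted values therefore decide nothing about ETV5. With every treated library set at a floor of 3 counts, the 72 h vehicle mean was 1.24-fold R1881 and 1.37-fold SNX631. These ratios take the vehicle mean as exact, although vehicle libraries also went down to 3 counts, and are not lower bounds. They differ with the depth of the treated libraries and do not rank the treatments. The floor covers counting error only. ETV5 shares 164 exon bases with DGKG on the same strand, and 21.4% of the libraries held a fractional ETV5 count.

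**Figure D2:**
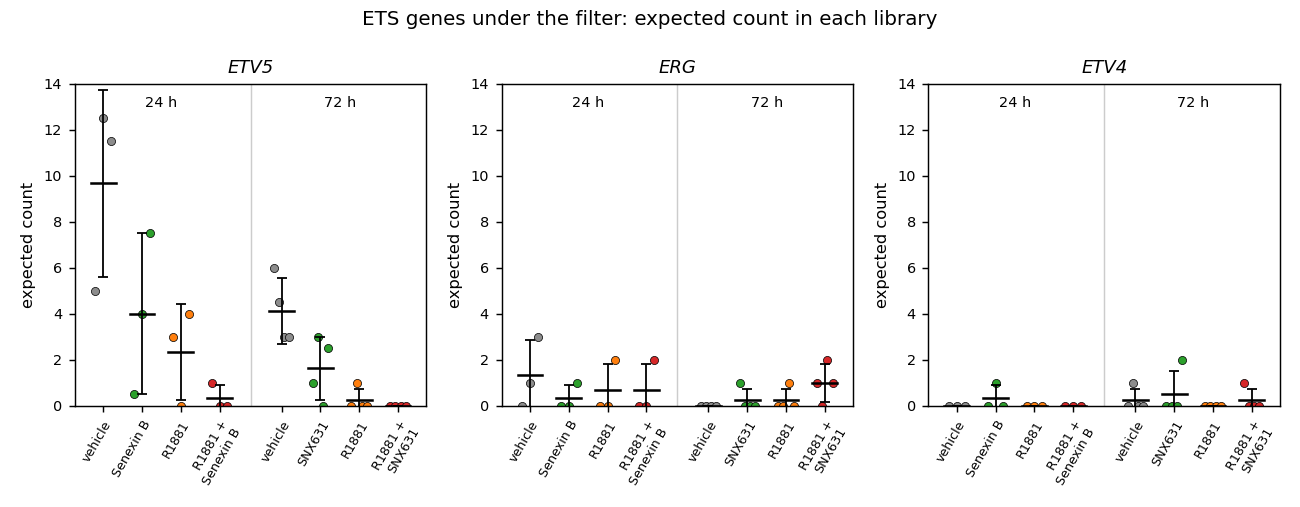
Expected count per library, not scaled to depth, of ETV5, ERG and ETV4 in the 8 groups (points; bar and whiskers, mean ± SD, cut at 0). ETV5 reaches 12.5 counts in vehicle and is at 0 in all 4 libraries with R1881 and SNX631, while ERG and ETV4 do not pass 3 counts anywhere.

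ETV1 (chromosome 7, 13891228 to 13991425, minus strand) was expressed at a low level in all 28 libraries. At 24 h it stood at 7.11, 6.34 and 6.72 CPM in vehicle and at 7.97, 6.61 and 7.52 CPM with R1881. At 72 h the values were 5.75, 4.73, 4.81 and 3.99 CPM in vehicle and 6.84, 6.71, 4.6 and 6.05 CPM with R1881. The groups overlapped at both times, and ETV1 was not called: its log2 fold change was 0.13 ± 0.12 (SE, FDR 0.358) at 24 h and 0.32 ± 0.13 (FDR 0.0324) at 72 h. The 95% interval of the 24 h difference, from -0.105 to 0.373, lies within the 1.5-fold limit. That of the 72 h difference, from 0.064 to 0.584, reaches about that limit. MIPOL1, the gene whose locus is known to harbour ETV1 in these cells, was at 80.7 ± 3.2 CPM in vehicle and, with R1881 for 24 h, at 75 ± 7.6 CPM (SD, n = 3). Its log2 fold change was -0.10 ± 0.053 (FDR 0.0977) at 24 h and -0.23 ± 0.037 (FDR 1.24e-06) at 72 h, under the fold limit both times.

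The first question was which members respond to R1881 without inhibitor. Genes counted as called had a false discovery rate (FDR) below 0.01 together with a change of more than 1.5-fold, the study's own limits. Of the 9 members, 6 passed the filter on low counts in both experiments, and 4 of these 6 were called at each time, beside 19% of 15948 genes tested at 24 h and 19.8% of 16074 at 72 h. ELK4, SPDEF and EHF rose, as did 9.81% of all genes at 24 h and 9.7% at 72 h, and ELF3 fell, as did 9.19% and 10.1%. The remaining pair, ETS2 and ETV1, was not called. The median log2 fold change of the 6 was 0.69 at 24 h and 0.74 at 72 h, against -0.016 and -0.014 over all genes tested. The members were chosen with earlier results of these data known, so these counts and medians are not a test of the ETS family.

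ELK4, the ternary complex factor (chromosome 1, 205597556 to 205631962, minus strand), had the largest rise at 24 h. Its level was 74, 70.5 and 74 CPM in vehicle and 207, 186 and 194 CPM with R1881 at 24 h. At 72 h it was 71.8, 75.6, 69.1 and 76.9 CPM in vehicle and 182, 192, 196 and 194 CPM with R1881. Every library with R1881 lay far above every library without it. The log2 fold change was 1.42 ± 0.043 (2.68-fold, FDR 9.61e-24) at 24 h and 1.37 ± 0.037 (2.59-fold, FDR 9.83e-29) at 72 h, and the difference between the times, -0.043 ± 0.057 (FDR 0.701, 95% interval -0.155 to 0.068), did not pass.

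SLC45A3, an androgen-driven gene of the prostate, ends 25888 bases upstream of ELK4 on the same strand, and a read-through RNA that joins the pair is known in prostate cells. SLC45A3 itself rose at 24 h from 32.1 ± 1.9 CPM in vehicle to 349 ± 15 CPM (SD, n = 3). At 72 h it rose from 37.7 ± 3 CPM to 379 ± 5.7 CPM (SD, n = 4). On the log2 scale these rises were 3.45 ± 0.047 and 3.32 ± 0.043. Counts per gene do not separate ELK4 reads that come from its own promoter from those of a read-through RNA. On the opposite strand MFSD4A shares 422 exon bases with ELK4. MFSD4A held 5.0% as many counts as ELK4 and moved the other way with R1881, by -1.93 ± 0.17 at 24 h (FDR 5.4e-13) and -1.50 ± 0.15 at 72 h (FDR 5.94e-12) on the log2 scale.

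SPDEF (chromosome 6, 34537802 to 34556333, minus strand), a factor of prostate and goblet cell epithelium, was the member whose response differed between the experiments. It was at 65.1, 66.1 and 64.5 CPM in vehicle and at 136, 152 and 139 CPM with R1881 at 24 h. It was at 73.2, 70.1, 65.1 and 66.6 CPM in vehicle and at 226, 231, 229 and 236 CPM with R1881 at 72 h. The vehicle values of the experiments overlapped, whereas the R1881 values did not. The log2 fold change was 1.13 ± 0.047 (2.18-fold, FDR 6.31e-20) at 24 h and 1.74 ± 0.034 (3.34-fold, FDR 1.95e-33) at 72 h. The difference of the effects was 0.62 ± 0.058 on the log2 scale (FDR 2.93e-11), which made SPDEF the 1 of 6 members called in that contrast, beside 1.88% of 16672 genes (0.57% higher, 1.31% lower). Without R1881 replicate 1 at 24 h the difference was 0.58 and fell just under the fold limit. Time and R1881 dose both rose between the experiments, so their parts cannot be told apart.

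EHF (chromosome 11, 34621093 to 34661057, plus strand), which is expressed in glandular epithelium, rose in both experiments from different starting levels. It was at 119, 111 and 111 CPM in vehicle and at 247, 230 and 262 CPM with R1881 at 24 h. At 72 h it was at 191, 204, 207 and 199 CPM in vehicle and at 446, 451, 464 and 428 CPM with R1881. Vehicle cells of the 72 h experiment all lay above vehicle cells of the 24 h experiment. The log2 fold change was 1.12 ± 0.045 (FDR 2.67e-20) at 24 h and 1.15 ± 0.029 (FDR 2.37e-29) at 72 h, with a difference of 0.032 ± 0.055 (FDR 0.787, 95% interval -0.076 to 0.139).

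ELF3 (chromosome 1, 202007945 to 202017188, plus strand), an epithelial factor linked to inflammation and terminal differentiation, was the member that fell. It was at 37.1, 37.6 and 37.1 CPM in vehicle and at 17.6, 17.7 and 14.7 CPM with R1881 at 24 h. At 72 h it was at 41.8, 41.8, 38.7 and 41.1 CPM in vehicle and at 21.3, 18.9, 19.3 and 21.4 CPM with R1881. All libraries with R1881 were below all libraries without it. The log2 fold change was -1.16 ± 0.073 (2.24-fold lower, FDR 1.2e-15) at 24 h and -1.03 ± 0.06 (2.04-fold lower, FDR 5.3e-18) at 72 h.

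Part of the ELF3 count is uncertain because ELF3 overlaps other genes. ELF3-AS1, on the opposite strand, and AL691482.3, on the same strand, each share 664 exon bases with it, and 64.3% of the libraries held a fractional ELF3 count. ELF3-AS1 held 32.6% and AL691482.3 23.8% as many counts as ELF3. Both moved in the same direction as ELF3 with R1881: ELF3-AS1 by -0.60 ± 0.12 at 24 h (FDR 4.6e-05) and -0.43 ± 0.1 at 72 h (FDR 0.00044, short of the fold limit), and AL691482.3 by -1.001 ± 0.14 (FDR 6.16e-08) and -1.07 ± 0.1 (FDR 3.48e-12).

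ETS2 (chromosome 21, 38805307 to 38824955, plus strand) lies 143526 bases from ERG, within the interval between ERG and TMPRSS2 that is lost when their fusion arises by deletion. It was at 11.2, 12.3 and 11.4 CPM in vehicle and at 12.7, 15.3 and 13.5 CPM with R1881 at 24 h. At 72 h it was at 10.8, 10.4, 10.7 and 9.21 CPM in vehicle and at 11.7, 12.3, 12.7 and 11.1 CPM with R1881. After TMM scaling the groups did not overlap, but scaled by library totals only they did at both times. There vehicle reached 12.6 CPM at 24 h and 11.5 CPM at 72 h, and R1881 went down to 12.4 and 10.9 CPM. The difference was small and not called, with a log2 fold change of 0.25 ± 0.092 (FDR 0.0199) at 24 h and 0.21 ± 0.092 (FDR 0.0446) at 72 h.

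**Figure D3:**
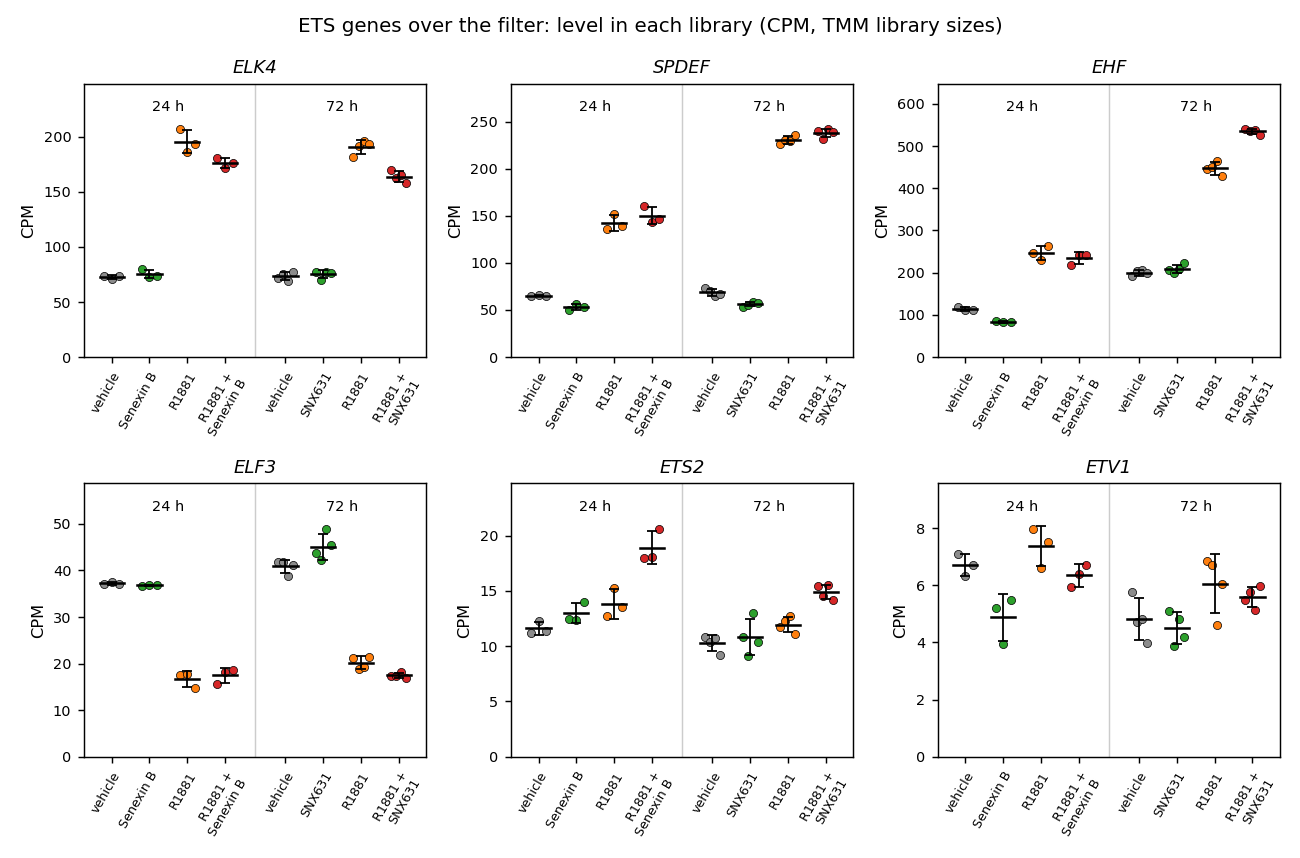
Level in each library (CPM, points), with the mean and SD of each group (bar and whiskers; n = 3 at 24 h, n = 4 at 72 h), for the 6 members that passed the filter. ELK4, SPDEF and EHF are higher and ELF3 is lower in every library with R1881 than in the libraries of the same experiment without it, whether or not an inhibitor was present.

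The next question was what the CDK8 and CDK19 inhibitors did to these genes without androgen. No member was called: 0 of 6 with Senexin B at 24 h and 0 of 6 with SNX631 at 72 h in edgeR and in DESeq2, beside 3.79% (2.02% higher, 1.77% lower) and 4.77% (2.82% higher, 1.94% lower) of all genes tested. At an unadjusted p under 0.05 there were 3 and 2 of 6, beside 44% and 44.6% of all genes. Shifts under the fold limit were seen in SPDEF, EHF and ETV1. SPDEF was at 50.5, 56.4 and 53.3 CPM with Senexin B, below all 3 vehicle libraries, and at 53.5, 55.1, 58.8 and 57.4 CPM with SNX631, below all 4. Its log2 fold change was -0.29 ± 0.053 (FDR 5.55e-05) with Senexin B and -0.29 ± 0.041 (FDR 2.42e-07) with SNX631.

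EHF was at 86.6, 83 and 82.2 CPM with Senexin B, a log2 fold change of -0.43 ± 0.05 (FDR 4.23e-08). With SNX631 it was at 207, 199, 208 and 222 CPM, which overlapped vehicle, and its log2 fold change was 0.053 ± 0.031 (FDR 0.181, 95% interval -0.007 to 0.114). ETV1 was at 5.21, 3.95 and 5.47 CPM with Senexin B, below every vehicle library, with a log2 fold change of -0.45 ± 0.13 (FDR 0.00641). With SNX631, ETV1 at 5.09, 3.88, 4.82 and 4.18 CPM overlapped vehicle, and its log2 fold change of -0.10 ± 0.14 did not pass (FDR 0.606, 95% interval -0.374 to 0.169). The values of the inhibitors were obtained at other times and doses and were not compared with each other.

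ELK4 did not pass with either inhibitor in the absence of R1881. It was at 79.6, 73.1 and 73.8 CPM with Senexin B (0.048 ± 0.047, FDR 0.455) and at 77.6, 70.1, 77.3 and 76.7 CPM with SNX631 (0.033 ± 0.041, FDR 0.578). The 95% intervals, -0.044 to 0.141 and -0.048 to 0.113, hold no change of more than 1.5-fold. ELF3 was at 36.7, 36.9 and 36.8 CPM with Senexin B, within 1 CPM of vehicle (-0.021 ± 0.058, FDR 0.815). With SNX631 it was at 43.7, 42.3, 48.9 and 45.4 CPM, above all vehicle libraries by a log2 fold change of 0.14 ± 0.049 (FDR 0.026). Scaled by library totals only, the lowest SNX631 library, at 43.6 CPM, lay below the highest vehicle value of 44.4 CPM. ETS2 did not pass with Senexin B (0.16 ± 0.091, FDR 0.174) or SNX631 (0.069 ± 0.092, FDR 0.604).

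The inhibitors were then compared in cells that also received R1881. Again 0 of 6 members were called in either experiment by edgeR or DESeq2, beside 3.12% of genes at 24 h (1.61% higher, 1.5% lower) and 4.12% at 72 h (1.89% higher, 2.24% lower). At an unadjusted p under 0.05 there were 2 and 4 of 6, beside 42.1% and 49% of all genes. ETS2 was higher with inhibitor and R1881 than with R1881 alone in both experiments, short of the fold limit. It was at 18, 18.1 and 20.6 CPM with R1881 and Senexin B, above the 12.7 to 15.3 CPM of R1881 alone, and at 15.4, 14.5, 15.5 and 14.2 CPM with R1881 and SNX631, above the 11.1 to 12.7 CPM of R1881 alone. The log2 fold change was 0.45 ± 0.092 (FDR 0.000243) at 24 h and 0.31 ± 0.084 (FDR 0.00298) at 72 h.

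ELK4 was lower with inhibitor in R1881-treated cells. It was at 181, 172 and 176 CPM with R1881 and Senexin B, all below R1881 alone, a log2 fold change of -0.15 ± 0.04 (FDR 0.00315). It was at 170, 163, 165 and 158 CPM with R1881 and SNX631, all below R1881 alone, a log2 fold change of -0.23 ± 0.032 (FDR 1.92e-07). By comparison KLK3, whose level with R1881 is known to depend on the androgen receptor, was lower by 1.92 and 1.59 on the log2 scale under the same treatments, 3.8-fold and 3.0-fold.

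EHF and SPDEF did not follow ELK4. EHF was at 218, 243 and 243 CPM with R1881 and Senexin B, which overlapped R1881 alone (-0.073 ± 0.043, FDR 0.207). It was at 540, 535, 538 and 527 CPM with R1881 and SNX631, above every library with R1881 alone, by a log2 fold change of 0.25 ± 0.027 (FDR 1.17e-09). SPDEF was at 160, 143 and 147 CPM and at 240, 232, 242 and 239 CPM, and its log2 fold changes of 0.076 ± 0.044 (FDR 0.195) and 0.037 ± 0.028 (FDR 0.299) did not pass. ELF3 was at 15.7, 18.1 and 18.6 CPM with R1881 and Senexin B (0.072 ± 0.087, FDR 0.569) and at 17.4, 17.4, 18.2 and 17 CPM with R1881 and SNX631, where the log2 fold change of -0.21 ± 0.068 had an FDR of 0.0101.

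Whether the response to R1881 survived the inhibitors was read from the R1881 effect in cells that all received the inhibitor. The same 4 of 6 members were called, in the same directions, beside 18.9% of genes under Senexin B (9.97% higher, 8.9% lower) and 22% under SNX631 (10.1% higher, 12% lower). Under Senexin B the log2 fold change was 1.22 ± 0.045 for ELK4, 1.49 ± 0.051 for SPDEF, 1.48 ± 0.049 for EHF and -1.07 ± 0.074 for ELF3. Under SNX631 it was 1.11 ± 0.037 for ELK4, 2.07 ± 0.035 for SPDEF, 1.34 ± 0.029 for EHF and -1.38 ± 0.059 for ELF3. ETS2 stayed just under the fold limit, with 0.54 ± 0.091 (1.46-fold, FDR 4.76e-06) under Senexin B and 0.45 ± 0.084 (1.37-fold, FDR 1.36e-05) under SNX631. Without Senexin B replicate 3 at 24 h, the first of these became 0.60 and ETS2 was called.

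The interaction, which is the R1881 effect under inhibitor minus that without it, had 0 of 6 members past both limits in each experiment, beside 0.577% of genes at 24 h (0.245% higher, 0.332% lower) and 1.19% at 72 h (0.373% higher, 0.821% lower). At an unadjusted p under 0.05 there were 4 of 6 in each, beside 16.7% and 25.1% of all genes, and DESeq2 called 0 as well. SPDEF responded more to R1881 under inhibitor, by 0.37 ± 0.069 on the log2 scale with Senexin B (FDR 0.00081) and by 0.33 ± 0.049 with SNX631 (FDR 5.38e-06). EHF did so by 0.36 ± 0.066 with Senexin B (FDR 0.000669) and by 0.19 ± 0.041 with SNX631 (FDR 0.000901). ELK4 responded less under SNX631, by -0.26 ± 0.052 (FDR 0.000399), and the value of -0.20 ± 0.062 with Senexin B had an FDR of 0.0552. ELF3 fell further under SNX631, by -0.35 ± 0.084 (FDR 0.00337), with 0.093 ± 0.1 (FDR 0.73) under Senexin B. The groups compared in these contrasts share libraries, so an interaction is not independent of the effects given above.

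**Figure D4:**
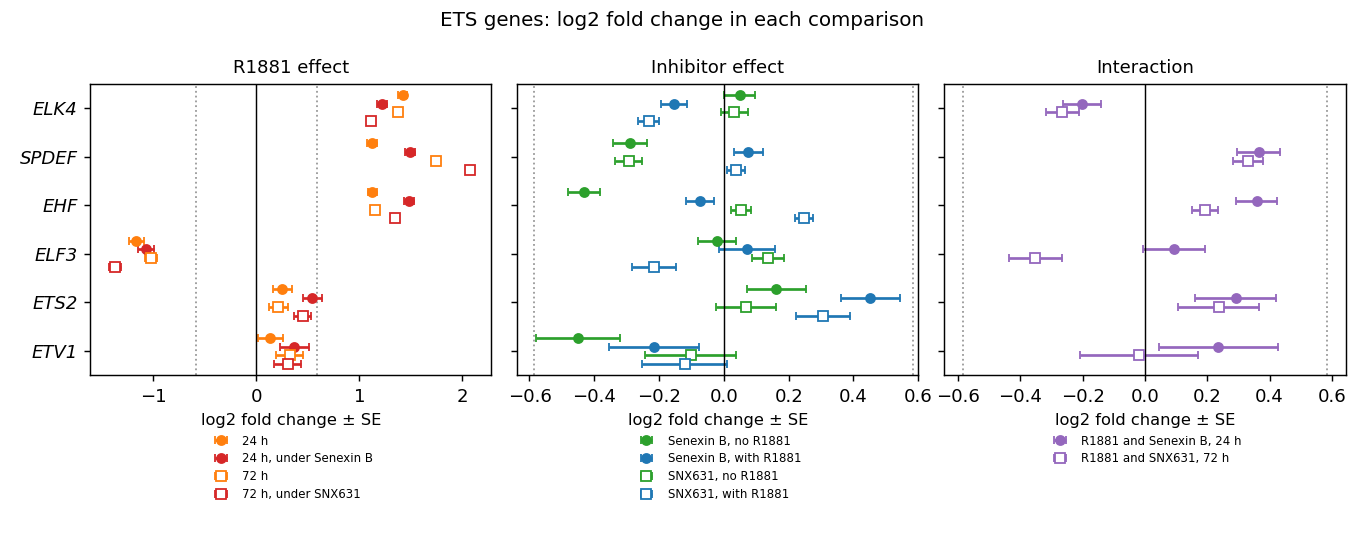
Log2 fold change ± SE of the 6 tested members (edgeR, all groups of an experiment in 1 fit): the R1881 effect without and under inhibitor, the inhibitor effect without and with R1881, and the interaction. Filled circles are the 24 h and open squares the 72 h experiment, and dotted lines mark a 1.5-fold change. ELK4, SPDEF, EHF and ELF3 lie beyond the dotted lines in the left panel, and all points of the other panels lie between them.

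Across the 8 groups the order of the levels was set by R1881 for ELK4, SPDEF and ELF3. For ELK4 the 4 groups with R1881 came first, between 164 and 196 CPM, and the 4 without it could not be separated, at 72.8 to 75.5 CPM with each neighbour overlapping the next. For SPDEF the order ran from R1881 with SNX631 at 238 CPM to Senexin B alone at 53.4 CPM, and the 72 h groups with R1881, the 24 h groups with R1881, both vehicle groups and both inhibitor groups formed 4 pairs that overlapped within but not between pairs. EHF ran from 535 CPM with R1881 and SNX631 to 83.9 CPM with Senexin B, and there the 72 h groups without R1881, at 200 and 209 CPM, came next to the 24 h groups with it, at 235 and 247 CPM. For ELF3 the order was inverted, with SNX631 alone highest at 45.1 CPM and R1881 at 24 h lowest at 16.7 CPM. ETS2 and ETV1 varied less, from 10.3 to 18.9 CPM and from 4.49 to 7.37 CPM, and each ETV1 group overlapped the next.

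Among the members themselves, log2 CPM over the 28 libraries, centred on the mean of each experiment, had a Pearson r of 0.96 between SPDEF and EHF, 0.95 between SPDEF and ELK4, and -0.97 between ELF3 and each of SPDEF, EHF and ELK4. These values describe libraries that share their treatments. Under the same measure, and out of 13472 genes with a mean of at least 1 CPM, those most like ELK4 were TRPM8 (r = 0.995), TEX2 (0.994) and F5 (0.993). For SPDEF they were PACSIN2 (0.997), CAPZB (0.994) and NDFIP2 (0.994), for EHF ARID5B (0.986), CDKN2C (0.983) and PSMA6 (0.983), and for ELF3 TLE3 (0.987), ATP2B1 (0.987) and BMF (0.986). ETS2 and ETV1 had less close neighbours, led by GIT1 (0.923) and UHMK1 (0.857). Without centring, TRPM8 and TEX2 remained nearest to ELK4 and TLE3 nearest to ELF3, while YES1 (0.986) was nearest to EHF, NDFIP2 (0.994) to SPDEF and CAT (0.83) to ETV1.

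The members called with R1881, of which ELF3 fell and the others rose, are shown with the 250 bases before their start as annotated in RefSeq. ETS factors are known to bind promoters of ETS genes. The sequences are those of RefSeq on GRCh38.p14, given 5′ to 3′ on the strand of the gene, with GGAA or its reverse complement TTCC in capitals. For EHF, which has 2 RefSeq starts, the window of the more upstream one is given. The gene positions given above come from another annotation and begin further upstream for EHF (34621093) and ELF3 (202007945). By those positions the EHF and ELF3 windows lie within the genes. The windows are chr1:205632012-205632261 (minus strand) for ELK4, chr6:34556330-34556579 (minus strand) for SPDEF, chr11:34624007-34624256 (plus strand) for EHF and chr1:202010337-202010586 (plus strand) for ELF3.
ELK4: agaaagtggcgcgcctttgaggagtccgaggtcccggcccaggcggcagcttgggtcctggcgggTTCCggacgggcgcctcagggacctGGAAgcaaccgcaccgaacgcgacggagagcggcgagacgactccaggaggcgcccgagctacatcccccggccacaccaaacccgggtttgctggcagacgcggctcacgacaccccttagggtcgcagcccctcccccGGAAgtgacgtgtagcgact
SPDEF: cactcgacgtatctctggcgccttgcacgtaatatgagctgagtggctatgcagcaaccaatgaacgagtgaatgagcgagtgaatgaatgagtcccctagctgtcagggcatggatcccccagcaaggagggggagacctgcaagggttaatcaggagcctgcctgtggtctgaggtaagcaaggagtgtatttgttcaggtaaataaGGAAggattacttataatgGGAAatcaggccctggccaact
EHF: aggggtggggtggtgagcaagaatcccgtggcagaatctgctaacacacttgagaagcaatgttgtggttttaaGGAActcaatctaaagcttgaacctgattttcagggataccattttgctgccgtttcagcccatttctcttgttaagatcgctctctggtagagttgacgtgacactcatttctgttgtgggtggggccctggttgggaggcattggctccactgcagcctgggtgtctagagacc
ELF3: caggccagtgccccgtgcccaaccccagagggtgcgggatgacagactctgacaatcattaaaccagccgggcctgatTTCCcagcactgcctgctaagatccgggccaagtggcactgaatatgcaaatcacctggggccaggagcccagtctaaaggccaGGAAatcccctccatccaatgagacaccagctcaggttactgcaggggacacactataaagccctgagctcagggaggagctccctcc

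The GGAA core occurred 3 times in the ELK4 window, 2 times in those of SPDEF and ELF3 and 1 time in the EHF window shown. The window of the second EHF start, not shown, held 0. The core is so short that 92.7% of 35116 promoter windows of the same length hold at least 1, with a median of 3. The longer ETS site CCGGAAGT, which contains the core, was searched on both strands and occurred 22 bases before the start in ELK4 and in 3.42% of all windows, and in no window of SPDEF, EHF or ELF3. The hexamer AGAACA, 1 arm of the androgen response element, occurred on either strand in 12.4% of all windows and in none of ELK4, SPDEF, EHF or ELF3. It occurred in 2 of the 6 windows of ETV1, 13 and 17 bases before starts whose windows overlap, so that it is 1 site seen in both. These matches describe letters in a short window and are not measurements of binding.

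The 19 ETS genes that are not among the 9 were read as a list. At 24 h 12 of them were tested and 3 were called with R1881, all higher, and at 72 h 13 were tested and 2 were called, both higher, beside 19% and 19.8% of all genes. The medians of the list, 0.0059 and -0.02 on the log2 scale, lay near those of all genes. ELF5, a factor of mammary and prostate glandular cells, rose from 0.459 ± 0.24 to 2.24 ± 0.41 CPM at 24 h (log2 fold change 2.05 ± 0.32, FDR 4.59e-07) and from 0.889 ± 0.34 to 1.66 ± 0.62 CPM at 72 h (0.91 ± 0.3, FDR 0.00653). FEV was called at 24 h (1.11 ± 0.28, FDR 0.000859), as was ELF2 (0.77 ± 0.053, FDR 4.18e-14), and ELF4 at 72 h (0.67 ± 0.096, FDR 1.14e-07). The 72 h count depended on the setting, being 0 when libraries were scaled by their totals only, 1 in DESeq2, and 1 without any single vehicle library or without R1881 replicate 3 or 4. Neither inhibitor called a gene of this list without or with R1881 in edgeR. The called shares of all genes were 3.79% with Senexin B alone, 4.77% with SNX631 alone, 3.12% with Senexin B and R1881, and 4.12% with SNX631 and R1881. In the same order, 2, 2, 4 and 3 genes of the list passed an FDR of 0.05, beside 35.8%, 36.5%, 33% and 42.8% of all genes. FLI1, the closest relative of ERG, held at most 0.0863 CPM.

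Genes known as partners of ETS oncogenes in rearrangements were read next. MIPOL1 is counted among them as the locus into which ETV1 moved in LNCaP, which need not supply a promoter. Of 13 genes known as 5′ partners of ETS fusions in prostate cancer, all were tested, and 7 were called with R1881 at 24 h (6 higher, 1 lower) and 9 at 72 h (8 higher, 1 lower), beside 19% and 19.8% of all genes, with medians of 0.57 and 0.85 on the log2 scale. The largest were KLK2, a kallikrein (7.47 ± 0.19 and 7.45 ± 0.16), TMPRSS2, the membrane serine protease that most often supplies the promoter (3.72 ± 0.058 and 4.10 ± 0.056), FKBP5, a co-chaperone of steroid receptors (3.65 ± 0.05 and 3.86 ± 0.033), and SLC45A3. HMGN2P46, a transcribed locus known as a partner of ETV1, fell, by 0.78 ± 0.098 and 0.79 ± 0.092. The list was chosen with its androgen-driven members known. With TMPRSS2 raised 13.1-fold at 24 h and 17.2-fold at 72 h, ERG stayed at 2 counts or fewer in each of the 7 libraries with R1881 alone.

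With either inhibitor, 1 of the 13 partners was called without R1881 and 2 with it, beside 3.79% of all genes with Senexin B alone, 4.77% with SNX631 alone, 3.12% with Senexin B and R1881 and 4.12% with SNX631 and R1881. HMGN2P46 was lower in all 4 comparisons, going from 23.5 ± 1 to 4.69 ± 1.3 CPM with Senexin B at 24 h (SD, n = 3; log2 fold change -2.33 ± 0.14) and from 19.2 ± 1.8 to 4.15 ± 0.23 CPM with SNX631 at 72 h (SD, n = 4; -2.20 ± 0.12). In the presence of R1881 its log2 fold change was -1.32 ± 0.14 with Senexin B and -0.94 ± 0.11 with SNX631. KLK2 was lower with R1881 and inhibitor than with R1881 alone, by -2.03 ± 0.053 and -1.91 ± 0.036. No other partner was called in these comparisons, although 2 were called with Senexin B alone without vehicle replicate 3 or Senexin B replicate 2.

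**Figure D5:**
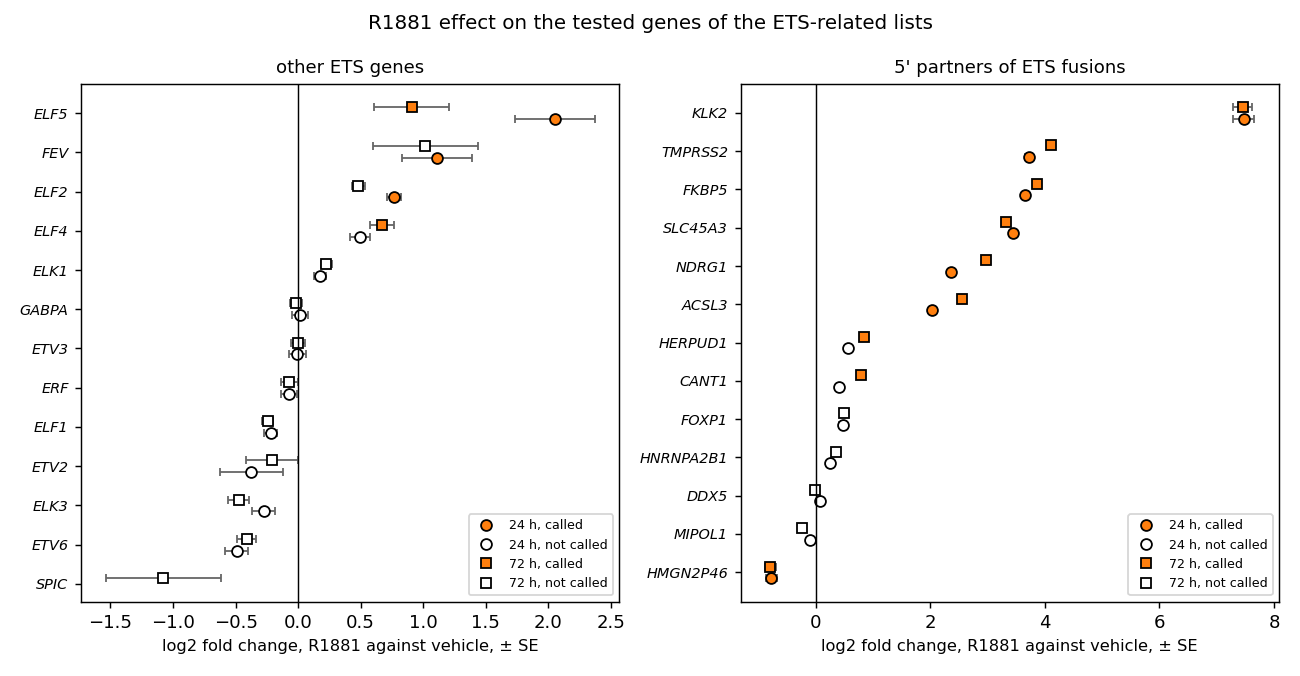
Log2 fold change ± SE of R1881 against vehicle at 24 h (circles) and 72 h (squares) for the tested genes among 19 other ETS genes (left) and 13 known 5′ partners of ETS fusions (right), each on its own axis. The 13 include MIPOL1, the locus that holds ETV1 in LNCaP. Filled symbols passed both limits. KLK2, TMPRSS2, FKBP5 and SLC45A3 stand furthest to the right, and most of the other ETS genes lie within 1 unit of 0.

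Genes transcribed downstream of ERK, a pathway that acts through ETS factors of the ETV4 and ETV5 group, moved in both directions. Of 16 such genes 13 were tested and 7 were called with R1881 at each time, 2 higher and 5 lower, beside 19% of all genes at 24 h (9.81% higher, 9.19% lower) and 19.8% at 72 h (9.7% higher, 10.1% lower). The largest changes at 24 h were in SPRY4 (-3.31 ± 0.28), DUSP5 (-1.54 ± 0.29), EPHA2 (-1.34 ± 0.22) and SPRY1 (1.07 ± 0.13), the first 2 being feedback inhibitors of receptor and ERK signalling. At 72 h they were in SPRY4 (-1.91 ± 0.33), DUSP5 (-1.78 ± 0.19), PHLDA1 (1.14 ± 0.1) and DUSP4 (1.12 ± 0.14). Senexin B called 2 of the list without R1881, EPHA2 and DUSP5, both higher by 0.66, and 3 with R1881, namely EPHA2 (0.92 ± 0.24), SPRED3 (-0.89 ± 0.25) and SPRY1 (-0.63 ± 0.13). SNX631 called PHLDA1 without R1881 (0.88 ± 0.11) and DUSP5 (1.00 ± 0.2), SPRED3 (-0.73 ± 0.18) and DUSP4 (-0.60 ± 0.12) with it. Of all genes, 3.79% and 3.12% were called with Senexin B without and with R1881, and 4.77% and 4.12% with SNX631. The counts of the list depended on single libraries. With Senexin B alone the count was 0 without vehicle replicate 3 and 1 without Senexin B replicate 2 or 3. With Senexin B and R1881 it was 1 without R1881 replicate 1 or 3 or without replicate 2 of the combination. With SNX631 alone it was 2 without vehicle replicate 3 or 4 or SNX631 replicate 2.

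Of 14 targets of serum response factor, the partner of ELK4, 9 were tested, and 2 were called with R1881 at 24 h and 1 at 72 h, beside the 19% and 19.8% of all genes. These were NR4A1 (1.31 ± 0.098) and ATF3 (0.87 ± 0.07) at 24 h and NR4A1 (1.67 ± 0.092) at 72 h, with medians of 0.13 and -0.063 over the tested genes. Without R1881, neither inhibitor called a gene of this list, beside 3.79% of all genes with Senexin B and 4.77% with SNX631. With Senexin B the count was 1 when its replicate 2 was left out. With R1881 the 1 call was NR4A1 under Senexin B (0.82 ± 0.081), with 0 under SNX631, beside 3.12% and 4.12% of all genes. At an FDR under 0.05 and no fold limit, 4 of 9 passed with Senexin B alone and 1 with SNX631 alone, beside 35.8% and 36.5% of all genes. In the presence of R1881, 3 passed with Senexin B and 4 with SNX631, beside 33% and 42.8%.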

How the data were processed

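RNA of LNCaP cells was sequenced in 28 directional libraries. The authors deposited expected counts per gene, not scaled to depth, in 1 table in which shared reads appear as fractions (16.9% of values above 0). The submitters' processing notes name FastQC, cutadapt 2.8, STAR 2.7.2b, featureCounts, Subread 2.0.3 and the builds GRCh38.p13 and GRCm39. The annotation release and the use of strand in counting are not given in the sources used here. The 2 entries that are not human genes held 0 counts and were left out.

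Each experiment was fitted on its own, with rounded counts of its 4 groups, by the quasi-likelihood test of edgeR 4.0.16 (R 4.3.3) after TMM scaling and filterByExpr at its limits of 10 counts per gene and 15 in total, with Benjamini-Hochberg adjustment over all genes tested. The difference between experiments came from a fit of all 28 libraries. A log2 fold change carries a Wald SE. CPM used TMM factors over all libraries. Members under the filter were compared by exact permutation. The study's methods call the replicates biological and the labels do not say how they were set up, so p-values measure the spread between these libraries. All replicate pairs differed beyond sampling noise. Positions and overlaps are from GENCODE 29 (GRCh38), and 7 of 9 members had a promoter in the RefSeq table, ETV4 and ETV5 having none.

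The members, the lists (other ETS genes, fusion partners, ERK output, serum response factor targets, cell type markers) and the tests were chosen with earlier results of these data known. Named were the members, the overlapping genes, KLK3, up to 4 called genes of a list by size of change, and up to 3 genes most like a member, 1 of which is not reported here. SLC45A3 as the neighbour of ELK4, MIPOL1, HMGN2P46 and FLI1 were named after their values were seen. The pipeline was checked on simulated counts. DESeq2 1.42.0 was an alternative. Figures were drawn with matplotlib 3.10.9.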

Additional observations from a re-analysis of the deposited data

Results flagged for a closer look

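In 7 cases the effect of a treatment on a member differed between conditions at an FDR under 0.01 by edgeR's test of the difference itself. The effect of Senexin B with R1881 minus that without was 0.37 for SPDEF and 0.36 for EHF on the log2 scale. The effect of SNX631 with R1881 minus that without was 0.33 for SPDEF, 0.19 for EHF, -0.35 for ELF3 and -0.26 for ELK4. The effect of R1881 at 72 h minus that at 24 h was 0.62 for SPDEF. The share of all genes at this limit was not computed, so the 7 cases cannot be set against it. With the fold limit added, 0.577%, 1.19% and 1.88% of all genes passed in these contrasts, in the order given. At an FDR under 0.05 and any size of change the shares were 4.51%, 12.7% and 13.2%.

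A library stood apart from the other 3 of its group in 7 of 33 groups of 4, by Dixon's ratio of gap to range above its 95% critical value, which chance gives in about 1 of 20 groups. The lowest ELK4 value with SNX631, 70.1 CPM against 76.7 to 77.6 CPM, had a ratio of 0.88. The other 6 had a ratio of 1.0 because 1 library held 1 or 2 counts and the other 3 held 0: ETV4 in vehicle, with SNX631 and with R1881 and SNX631, ETV5 with R1881, and ERG with SNX631 and with R1881, all at 72 h.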

How the results depend on the processing

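The number of members called was 4, 4, 4 and 4 for the R1881 effects, 0 for the inhibitor effects and interactions and 1 for the difference of R1881 effects between experiments. Under DESeq2 size factors, library totals only, the DESeq2 Wald test, a replicate block and 1 fit of all 28 libraries these counts did not change by more than 1.5 times, and all 66 log2 fold changes of tested members kept their direction and their side of the limits under each of these and with no filter on low counts. With no filter ETV5 was also called lower with R1881 at 72 h (log2 fold change -3.35, FDR 0.00411). Same-numbered replicates did not deviate together (r from -0.015 to 0.075 at 24 h and -0.055 to 0.065 at 72 h), so the numbers were not read as pairs. The replicate block moved the count of fusion partners called with Senexin B alone from 1 to 2, as did leaving out the filter.

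With the limit set to an FDR of 0.05 and any size of change, members called became 3 with Senexin B alone, 2 with SNX631 alone, 2 with Senexin B and R1881, 4 with SNX631 and R1881, and 2 and 4 in the interactions with Senexin B and SNX631. At that limit 35.8%, 36.5%, 33%, 42.8%, 4.51% and 12.7% of all genes passed in these comparisons, and 58.4% and 62.1% with R1881 at 24 h and 72 h. In the same order of R1881 at 24 h, R1881 at 72 h, Senexin B alone, SNX631 alone, Senexin B with R1881 and SNX631 with R1881, other ETS genes became 8, 9, 2, 2, 4 and 3. Fusion partners became 12 with R1881 at 24 h, 8 and 8 with the inhibitors alone and 9 and 9 with R1881. ERK output genes became 11 with R1881 at 72 h, 4 and 5 with the inhibitors alone and 5 with SNX631 and R1881. Serum response factor targets became 7, 6, 4, 1, 3 and 4.

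Other ETS genes called with R1881 at 72 h were 0 with library totals only and 1 with DESeq2. ERK output genes were 1 with Senexin B alone in DESeq2 and 2 with SNX631 alone with library totals only, and serum response factor targets were 2 with R1881 at 72 h with no filter. The cause was not tested.

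Leaving out each library in turn gave 0 to 1 members for the difference between experiments, 1 to 3 other ETS genes with R1881 at 72 h, 1 to 2 fusion partners and 0 to 2 ERK output genes with Senexin B alone, 1 to 3 ERK output genes with Senexin B and R1881, 1 to 2 with SNX631 alone, and 0 to 1 serum response factor targets with Senexin B alone. Of the log2 fold changes so obtained for members, 995 kept direction and call, 1 lost its call (SPDEF across the experiments, 0.58), 1 gained one (ETS2 with R1881 under Senexin B, 0.60) and 11 changed direction, none of them called. These belong to 6 comparisons, whose values ran from -0.13 to 0.065 for ETV1 in the interaction with SNX631, from -0.021 to 0.14 for ELF3 with Senexin B and R1881, from -0.0062 to 0.15 for ELF3 in that interaction, from -0.034 to 0.15 for ETS2 with SNX631 alone, from -0.095 to 0.035 for ETS2 across the experiments, and from -0.023 to 0.075 for EHF across the experiments. Depth limits ETV4, ERG and ETV5, whose counts allow no reliable fold change or bound.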
